A study of Mus musculus with 12 samples.

Results

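Expression of 54 genes of vesicle uptake, endosomal sorting and vesicle release was followed in cultured N2a cells that had been given brain-derived extracellular vesicles (BDEVs). N2a is a neuroblastoma line of the mouse, and extracellular vesicles are membrane-bound particles shed by cells. The genes were taken by name from the 24318 gene rows of the deposited expression tables, and all 54 were found. The question put to them was whether a recipient cell changes the genes of its uptake machinery when it is given vesicles. Polyadenylated RNA was sequenced from 12 libraries in 3 groups of 4: cells given BDEVs of status epilepticus (SE-BDEV), a prolonged seizure, cells given BDEVs labelled CON (CON-BDEV), and cells given vehicle (Vehicle). The labels used here spell out neither CON nor the vehicle, give no dose or time, and do not say which animals or which brain region the vesicles came from. Nothing in them tells separate cultures or separate vesicle batches from repeats of 1, so each p-value reflects the spread among these libraries, part of which may be technical. N2a is a single tumour line, and all groups share it.

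Cells take up vesicles mainly by endocytosis. In the clathrin route, the AP-2 adaptor gathers receptors and recruits the clathrin coat, and dynamin cuts the pit from the membrane, while caveolins and flotillins mark routes that need no clathrin. Cargo then passes through early endosomes, run by Rab5 and its effector Eea1, to recycling endosomes (Rab11, Rab35, Ehd1) or late endosomes (Rab7). The ESCRT complexes sort ubiquitinated cargo and bud it into the lumen of the late endosome, and the same inward buds are released as exosomes when such an endosome fuses with the plasma membrane. Tetraspanins such as Cd9, Cd63 and Cd81 are the usual protein markers of these vesicles.

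The libraries matched their label as N2a cells: 11 of 11 markers of sympathetic neuroblasts, the lineage of the line, stood at 1 FPKM or more (a fragment count corrected for transcript length and library depth). Of 8 markers each, 0 astrocyte, 1 microglia, 2 brain endothelium, 2 forebrain neuron and 3 oligodendrocyte genes reached that level, and Gjb6, C1qb, Cldn5, Slco1a4, Neurod6 and Olig1 were at 0 in every library. In the astrocyte list 7 of 8 genes were under 0.1 FPKM. The astrocyte list summed to 1.04 to 1.25 FPKM in Vehicle, 0.722 to 0.902 in CON-BDEV and 0.744 to 1.09 in SE-BDEV. Sums of the other brain lists overlapped between groups. In Vehicle, CON-BDEV and SE-BDEV the oligodendrocyte list summed to 17.3 to 18.9, 16.96 to 18.7 and 16.8 to 19.9 FPKM. The forebrain neuron list gave 10.3 to 10.9, 9.45 to 10.9 and 9.68 to 11.96 in that order. Brain endothelium gave 4.75 to 5.74, 5.001 to 5.35 and 4.45 to 5.43. Microglia gave 1.41 to 2.14, 1.66 to 2.47 and 1.94 to 1.98. Against Vehicle 7 of the 11 lineage markers rose in CON-BDEV (Phox2a, Hand2, Gata3, Dbh, Ddc, Chga, Chgb), where 1.02% of all tested genes rose. In SE-BDEV 3 (Dbh, Ddc, Chga) rose, where 33 of all 11311 tested genes rose and 0.919% were called in either direction. Between SE-BDEV and CON-BDEV 0 of the 11 were called by limma, and 0 had an unadjusted p under 0.05, where 2.62% of all tested genes did. The summed level of the 11 ran from 1067 to 1100.5 FPKM in Vehicle, 1143 to 1221 in CON-BDEV and 1083 to 1204 in SE-BDEV. Depth, estimated because totals are not given, was 13900000 to 14900000 fragments in Vehicle, 12200000 to 13400000 in CON-BDEV and 12400000 to 14300000 in SE-BDEV. The part of these markers and of depth in the results below was not tested.

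Most of the machinery was well expressed. Averaged over the 12 libraries, 51 of the 54 genes reached 1 FPKM, and these were tested. Their median level was 37.5 FPKM against 15.5 for all genes tested, 44 lay above that median, and 8 exceeded 100 FPKM, as 7.59% of all tested genes did. The highest were the tetraspanin Cd63 (mean 267 FPKM), the integrin subunit Itgb1 (262), Cd9 (163), the AP-2 subunit Ap2m1 (154), Rab7 (152), the clathrin heavy chain Cltc (118), the light chain Clta (106) and Rab5c (103). The ranges over 12 libraries overlapped between Cd63 and Itgb1, between Cd9, Ap2m1 and Rab7, between Cltc and Clta, and between Clta and Rab5c, so these neighbours were not apart beyond their spread. At the low end stood the lipoprotein receptor Lrp1 (8.03 FPKM), the vesicle-docking Rab27a (7.09), the recycling ATPase Ehd4 (6.53) and the tetraspanin Cd82 (3.18). The 3 genes not tested were near 0. The caveolin Cav1 was above 0 in 2 of 12 libraries with a maximum of 0.027 FPKM, Cav2 in 7 with a maximum of 0.028, and Rab27b in 9 with a maximum of 0.037. Of the 4 caveolin and flotillin genes among the members, the 2 flotillins were thus the ones that could be tested.

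**Figure D1:**
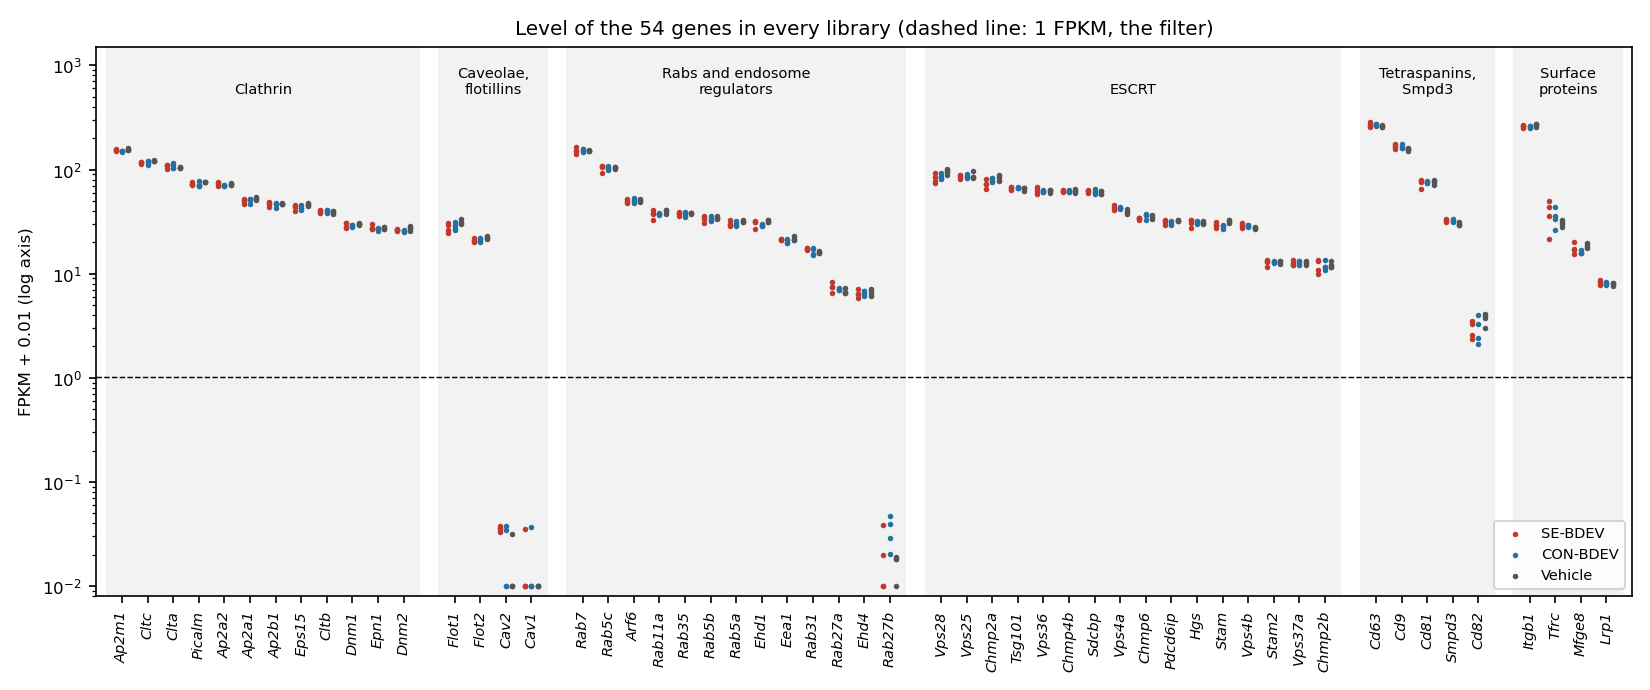
FPKM + 0.01 on a log axis for the 54 genes, sorted by mean within 6 role groups; each point is 1 library, coloured by group, and the dashed line is the filter of 1 FPKM. Cav1, Cav2 and Rab27b lie under 0.1 FPKM in all libraries, and the 3 groups of points lie close together for nearly every gene, with Tfrc in SE-BDEV the widest of the abundant ones.

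For genes that encode versions of the same protein, the division between them is given as the ratio of FPKM, mean ± SD of 4 libraries. Rab5c to Rab5a was 3.29 ± 0.13 in Vehicle, 3.41 ± 0.18 in CON-BDEV and 3.41 ± 0.31 in SE-BDEV. Dnm1 to Dnm2, the neuronal and the ubiquitous dynamin, was 1.11 ± 0.04, 1.13 ± 0.03 and 1.12 ± 0.04 in that order. By these values the ubiquitous form stood nearly as high as the neuronal one. In a mouse annotation of a later build (GENCODE M21) exons of Dnm2 overlap Tmed1 on the opposite strand, a gene at 23.0 FPKM. Whether the counting used strand is not given, so the level of Dnm2 may be overstated. Stam to Stam2, which serve the same place in ESCRT-0, was 2.48 ± 0.09 in Vehicle, 2.19 ± 0.11 in CON-BDEV and 2.30 ± 0.11 in SE-BDEV. Over all 12 libraries this last ratio lay between 2.04 and 2.59.

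Promoter sequence was read for the members to show what lies upstream of them. RefSeq windows of GRCm38.p6, from 250 bases before to 50 bases after the annotated start, were at hand for 45 of the 54 members, and 4 motifs were searched on both strands. The GC box GGGCGG was in 77.8% of members with a window, 71.1% of tested genes and 38.2% of all genes, and CCAAT was in 46.7%, 43.7% and 41.1%. The E-box palindrome TCACGTGA, which reads the same on both strands and is the core of the element bound by TFEB, a regulator of lysosomal genes, was in 3 of 45 members (6.67%), 2.29% of tested genes and 1.12% of all genes. The cyclic AMP response element TGACGTCA was in 4 (Ap2b1, Chmp2a, Cltb, Rab5a), which is 8.89%, 3.98% and 2.03% in the same order. A match is a description of these letters and no evidence of binding.

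The windows of Stam and Mfge8, the 2 members called below by limma in the main fit, are shown first. Stam (chr2:14073850-14074149, plus strand, 69.7% G and C) holds none of the 4 motifs, and Mfge8 (chr7:79149011-79149310, minus strand, 64.3%) holds 4 GC boxes whose first bases lie 61, 50, 33 and 12 bases before the start, shown in capitals 5′ to 3′.
Stam: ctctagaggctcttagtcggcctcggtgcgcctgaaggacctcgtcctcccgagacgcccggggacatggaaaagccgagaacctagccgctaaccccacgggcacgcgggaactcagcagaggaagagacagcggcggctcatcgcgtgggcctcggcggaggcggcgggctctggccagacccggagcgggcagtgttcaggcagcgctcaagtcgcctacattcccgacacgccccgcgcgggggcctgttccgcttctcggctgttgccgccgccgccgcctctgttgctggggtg
Mfge8: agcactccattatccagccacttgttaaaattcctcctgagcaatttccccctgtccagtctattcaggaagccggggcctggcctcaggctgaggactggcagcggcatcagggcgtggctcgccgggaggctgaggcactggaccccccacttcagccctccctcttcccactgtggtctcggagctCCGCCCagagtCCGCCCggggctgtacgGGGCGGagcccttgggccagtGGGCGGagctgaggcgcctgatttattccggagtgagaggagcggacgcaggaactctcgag

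Also shown are the 3 members that hold the E-box palindrome, which are all the members found with it. They are Picalm of the coated pit (chr7:90129963-90130262, plus strand), Rab5a of the early endosome (chr17:53478984-53479283, plus strand) and Pdcd6ip of the budding step (chr9:113708210-113708509, minus strand). Capitals mark every match to the 4 motifs. Picalm holds the palindrome at 192 and 2 bases before the start, beside 6 GC boxes, Rab5a at 96, beside a CCAAT box, a GC box and a cyclic AMP response element, and Pdcd6ip at 39.
Picalm: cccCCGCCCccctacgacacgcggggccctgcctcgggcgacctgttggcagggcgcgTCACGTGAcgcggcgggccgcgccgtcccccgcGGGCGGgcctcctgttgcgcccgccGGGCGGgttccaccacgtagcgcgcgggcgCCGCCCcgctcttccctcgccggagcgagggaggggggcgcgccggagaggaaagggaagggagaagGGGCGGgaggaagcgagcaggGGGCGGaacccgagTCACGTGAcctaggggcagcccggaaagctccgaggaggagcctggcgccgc
Rab5a: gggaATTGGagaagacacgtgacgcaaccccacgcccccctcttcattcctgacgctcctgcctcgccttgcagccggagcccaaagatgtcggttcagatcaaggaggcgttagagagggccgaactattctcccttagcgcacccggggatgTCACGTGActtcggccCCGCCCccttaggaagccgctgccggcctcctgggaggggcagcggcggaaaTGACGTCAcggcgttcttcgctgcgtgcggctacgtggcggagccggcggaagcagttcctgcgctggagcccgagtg
Pdcd6ip: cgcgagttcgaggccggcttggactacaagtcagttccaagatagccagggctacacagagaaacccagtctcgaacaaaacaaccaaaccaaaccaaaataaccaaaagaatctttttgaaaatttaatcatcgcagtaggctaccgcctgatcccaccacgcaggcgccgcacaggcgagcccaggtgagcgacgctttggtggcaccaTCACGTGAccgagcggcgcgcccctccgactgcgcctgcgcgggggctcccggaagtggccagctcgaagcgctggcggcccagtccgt

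Against Vehicle the differences were small. In CON-BDEV, 2 of the 51 tested genes fell, Mfge8 and Stam, and 0 rose, with 2.84% of 11320 tested genes called in either direction, 1.82% falling and 1.02% rising (limma on log2(FPKM + 1), adjusted p under 0.05). In SE-BDEV, 0 of 51 were called, against 0.919% of 11311 genes, and 1 without SE-BDEV replicate 2. In CON-BDEV leaving out 1 library gave 0 to 3, as set out below for Mfge8 and Stam. When both BDEV groups were set against Vehicle in 1 fit of 12 libraries, 0 of 51 were called against 3.37% of 11312 genes, a count that became 1 without SE-BDEV replicate 2 or Vehicle replicate 4 and 2 without SE-BDEV replicate 4. At an unadjusted p under 0.05 the members numbered 12 in CON-BDEV (3 higher, 9 lower), 9 in SE-BDEV (4 higher, 5 lower) and 12 in the joint comparison (3 higher, 9 lower), where 19.1%, 14.8% and 18.8% of all tested genes passed. Of all tested genes 9.58% were higher and 9.56% lower at that level in CON-BDEV, 7.93% and 6.89% in SE-BDEV, and 10.1% and 8.67% in the joint comparison. The authors' deposited table gave 1 member with q under 0.05 in SE-BDEV, Tfrc, where 1.17% of 11928 genes passed, and 0 in CON-BDEV, where 1.8% of 11912 did. Both comparisons use the same 4 Vehicle libraries, so they are not independent of each other.

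Most differences pointed down. The log2 fold change was below 0 for 34 of 51 genes in SE-BDEV (66.7%, against 45.4% of all tested genes) and for 32 in CON-BDEV (62.7%, against 48%). The joint comparison gave 34 (66.7%, against 46.3%). The median was -0.02 in SE-BDEV and -0.03 in CON-BDEV, against 0.01 and 0.00 over all tested genes. Without replicate 2 of the BDEV group compared, the median was -0.01 in SE-BDEV and in CON-BDEV. Values ran from -0.26 (Cd82) to 0.25 (Tfrc) in SE-BDEV and from -0.27 (Cd82) to 0.17 (Tfrc) in CON-BDEV. In CON-BDEV the 4 libraries lay outside the Vehicle range for 7 genes, which is 13.7% of the members and 11.9% of all tested genes: Ap2m1, Dnm1, Ehd1, Mfge8, Pdcd6ip and Stam lay below it and Vps4a above, where 6.23% of all genes lay below and 5.68% above. In SE-BDEV this held for Rab31, above, and Cltc, below, which is 3.92% of the members and 10.2% of all genes (5.77% above, 4.39% below). The 8 BDEV libraries together lay outside the Vehicle range for 0 of 51 members and 5.19% of all genes. In bulk RNA, fewer cells of a kind and less RNA per cell cannot be told apart.

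**Figure D2:**
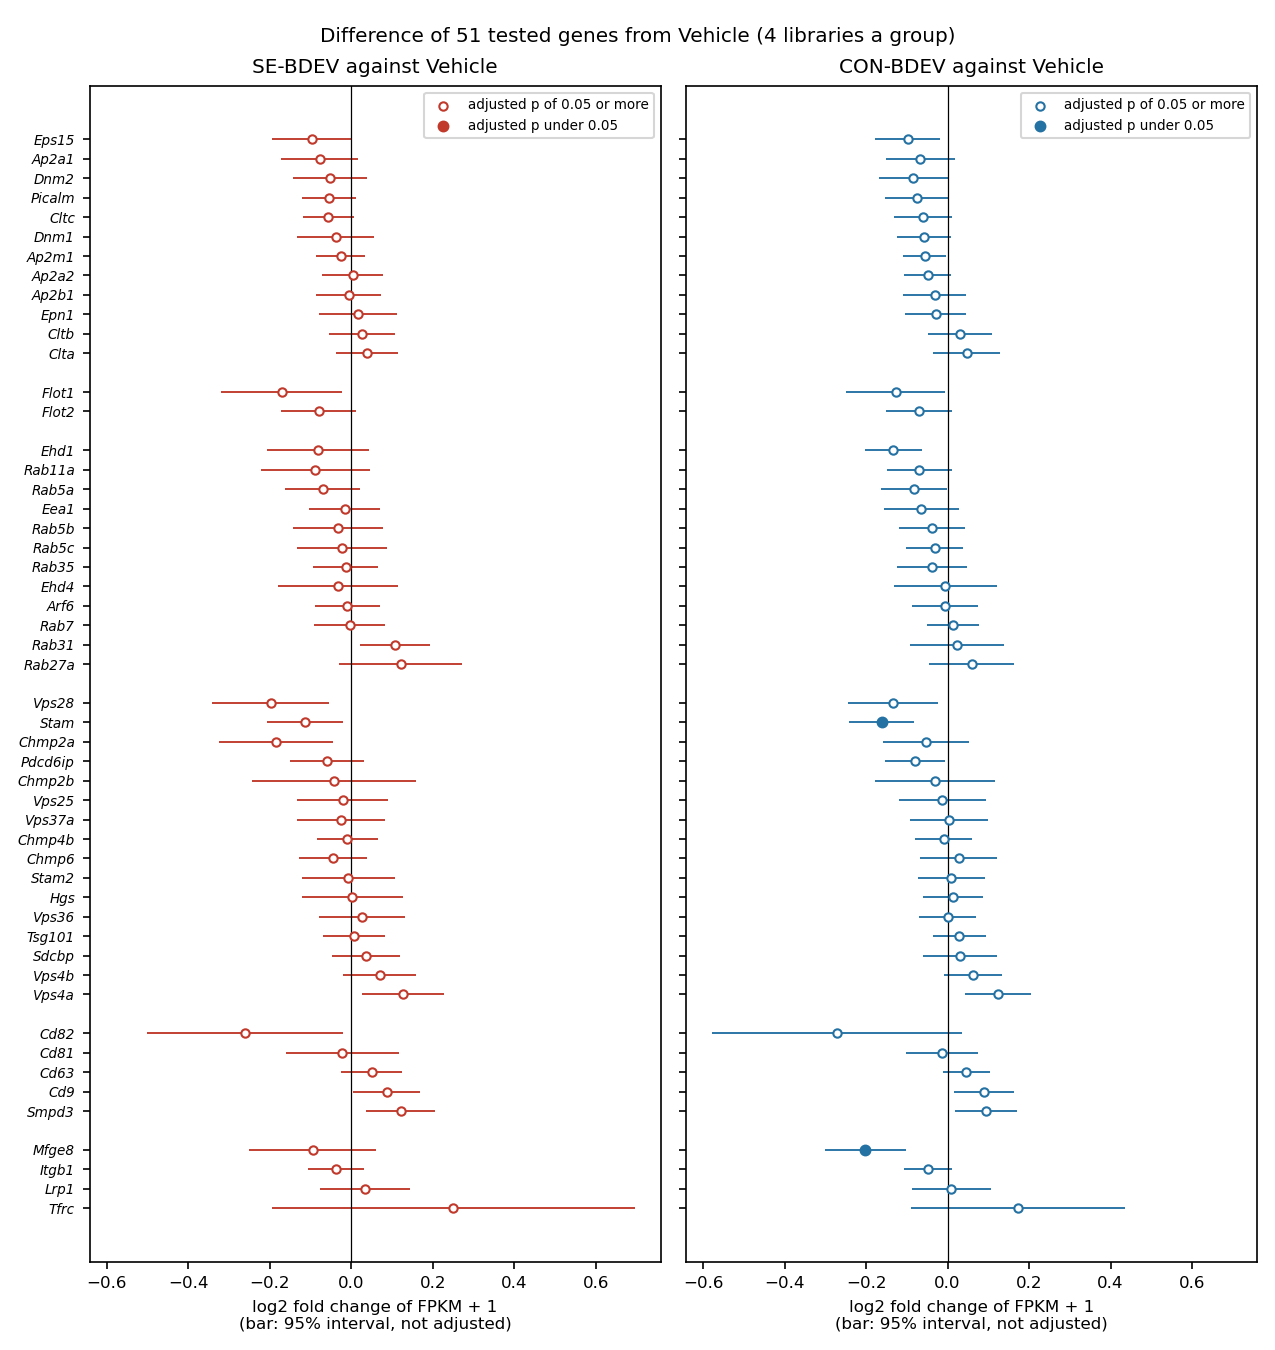
Log2 fold change of FPKM + 1 from Vehicle for the 51 tested genes in SE-BDEV (left) and CON-BDEV (right), grouped by role; bars are 95% intervals, not adjusted for the number of genes, and filled points have an adjusted p under 0.05. The filled points are Stam at -0.16 and Mfge8 at -0.20 in CON-BDEV; the bars of Tfrc and Cd82 are the widest.

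Size could be bounded for most of the machinery, as for most tested genes. The 95% interval of the log2 fold change lay within ±0.32 for 47 of 51 genes in SE-BDEV, all but Cd82, Chmp2a, Tfrc and Vps28. It did so for 49 in CON-BDEV, all but Cd82 and Tfrc. Of all tested genes 9594 of 11311 did in SE-BDEV and 9848 of 11320 in CON-BDEV. Within ±0.58 lay 50 and 51 members, beside 11068 and 11120 of all tested genes. The widest bound was Tfrc in SE-BDEV, at 0.70.

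**Figure D3:**
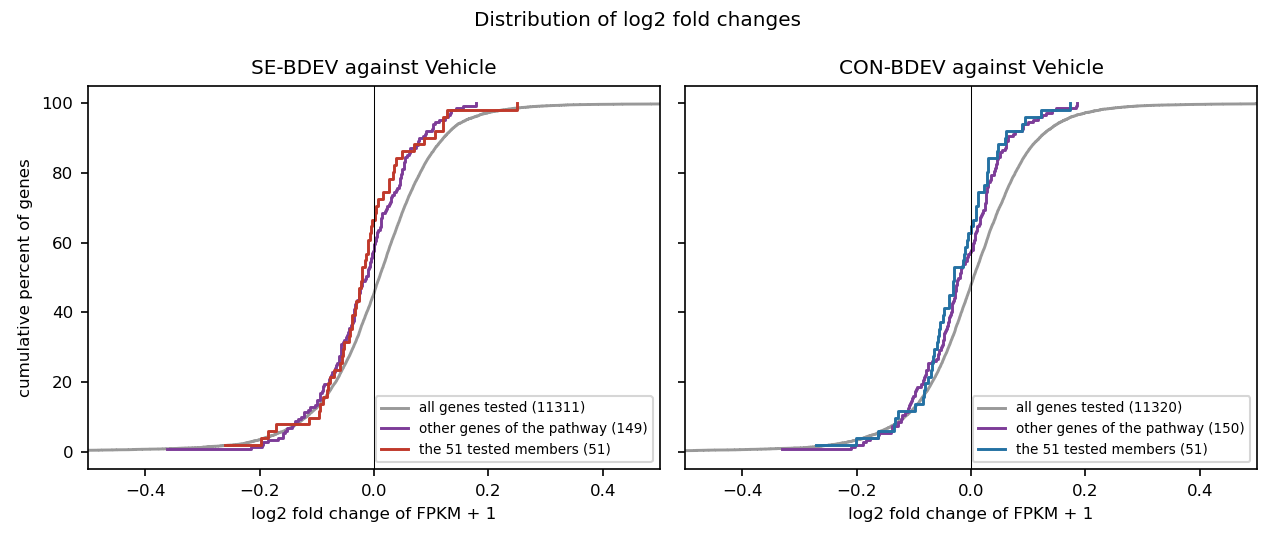
Cumulative percent of genes by log2 fold change from Vehicle, for all genes tested, the other genes of the pathway and the 51 tested members, in SE-BDEV (left) and CON-BDEV (right). The curves of the members cross 0 at 66.7% and 62.7% against 45.4% and 48% for all genes, and all members lie between -0.27 and 0.25.

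Of the 4 genes grouped as surface receptors, cargo and vesicle ligands, Mfge8 fell in CON-BDEV. Mfge8 (mm9 chr7:86278654-86293946) encodes a secreted protein that binds phosphatidylserine on membranes and links it to integrins. It read 18.9, 18.1, 19.9 and 17.6 FPKM in Vehicle replicates 1 to 4, 15.8, 17.0, 15.7 and 15.7 in CON-BDEV replicates 1 to 4, and 16.9, 15.5, 17.4 and 20.0 in SE-BDEV replicates 1 to 4. The CON-BDEV libraries all lay below the lowest Vehicle library, while SE-BDEV replicate 4 lay above the highest. The group means were 18.6 ± 0.988 FPKM (SD, n = 4) in Vehicle, 16.1 ± 0.602 in CON-BDEV and 17.4 ± 1.89 in SE-BDEV. Mfge8 fell in CON-BDEV by 0.20 on the log2 scale, with a standard error of 0.04 and an adjusted p of 0.0396, and was -0.10 ± 0.07 (± standard error, as for all fold changes here) with an adjusted p of 0.558 in SE-BDEV. The difference between the BDEV groups had a 95% interval of -0.03 to 0.24, so the response of this gene was not shown to differ between them.

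The call on Mfge8 was close to the threshold. It held in 5 of 16 alternative settings, as did that on Stam, with adjusted p from 0.0241 to 0.171 for Mfge8 and from 0.0290 to 0.225 for Stam. Neither gene passed without CON-BDEV replicate 3 or 4, or without Vehicle replicate 1, 2 or 3. Without Vehicle replicate 4 only Mfge8 passed, without CON-BDEV replicate 1 Stam and Picalm did, and without CON-BDEV replicate 2 Ehd1 passed beside both.

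The other genes of the surface receptor, cargo and ligand group did not pass. Itgb1 (mm9 chr8:131209554-131257479), the beta1 integrin subunit that pairs with many alpha subunits, read 272, 271, 267 and 258 FPKM in Vehicle replicates 1 to 4, 262, 258, 262 and 251 in CON-BDEV replicates 1 to 4, and 264, 260.2, 250.4 and 265 in SE-BDEV replicates 1 to 4. All 3 groups overlapped, and the fold changes were -0.05 ± 0.03 in CON-BDEV and -0.04 ± 0.03 in SE-BDEV (adjusted p of 0.368 and 0.609). Lrp1, an endocytic receptor for many ligands, was at 0.01 and 0.03.

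Tfrc, the transferrin receptor that brings iron into the cell through clathrin pits, varied the most of all tested members in SE-BDEV. At mm9 chr16:32608982-32632880, it read 27.9, 32.5, 29.9 and 31.1 FPKM in Vehicle replicates 1 to 4, 43.6, 26.1, 33.7 and 35.8 in CON-BDEV replicates 1 to 4, and 43.8, 21.5, 50.2 and 36.2 in SE-BDEV replicates 1 to 4. In each BDEV group replicate 2 lay below the whole Vehicle range and the remaining 3 libraries above it. Between SE-BDEV libraries its log2(FPKM + 1) had an SD of 0.52, where 0.477% of all tested genes had a larger one, while the SD was 0.30 between CON-BDEV libraries (1.75%) and 0.09 between Vehicle libraries (24.9%). The log2 fold change was 0.25 ± 0.20 in SE-BDEV and 0.17 ± 0.12 in CON-BDEV, with adjusted p of 0.602 and 0.468. One library moved it far in either direction. In SE-BDEV it was 0.49 and passed without SE-BDEV replicate 2, and it was 0.10 without SE-BDEV replicate 3 and 0.16 without SE-BDEV replicate 1. In CON-BDEV it was 0.30 without CON-BDEV replicate 2 and 0.06 without CON-BDEV replicate 1, passing in neither. The authors' deposited table gave a log2 fold change of 0.32 and a q-value of 0.00686 in SE-BDEV, and a q-value of 0.0803 in CON-BDEV.

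**Figure D4:**
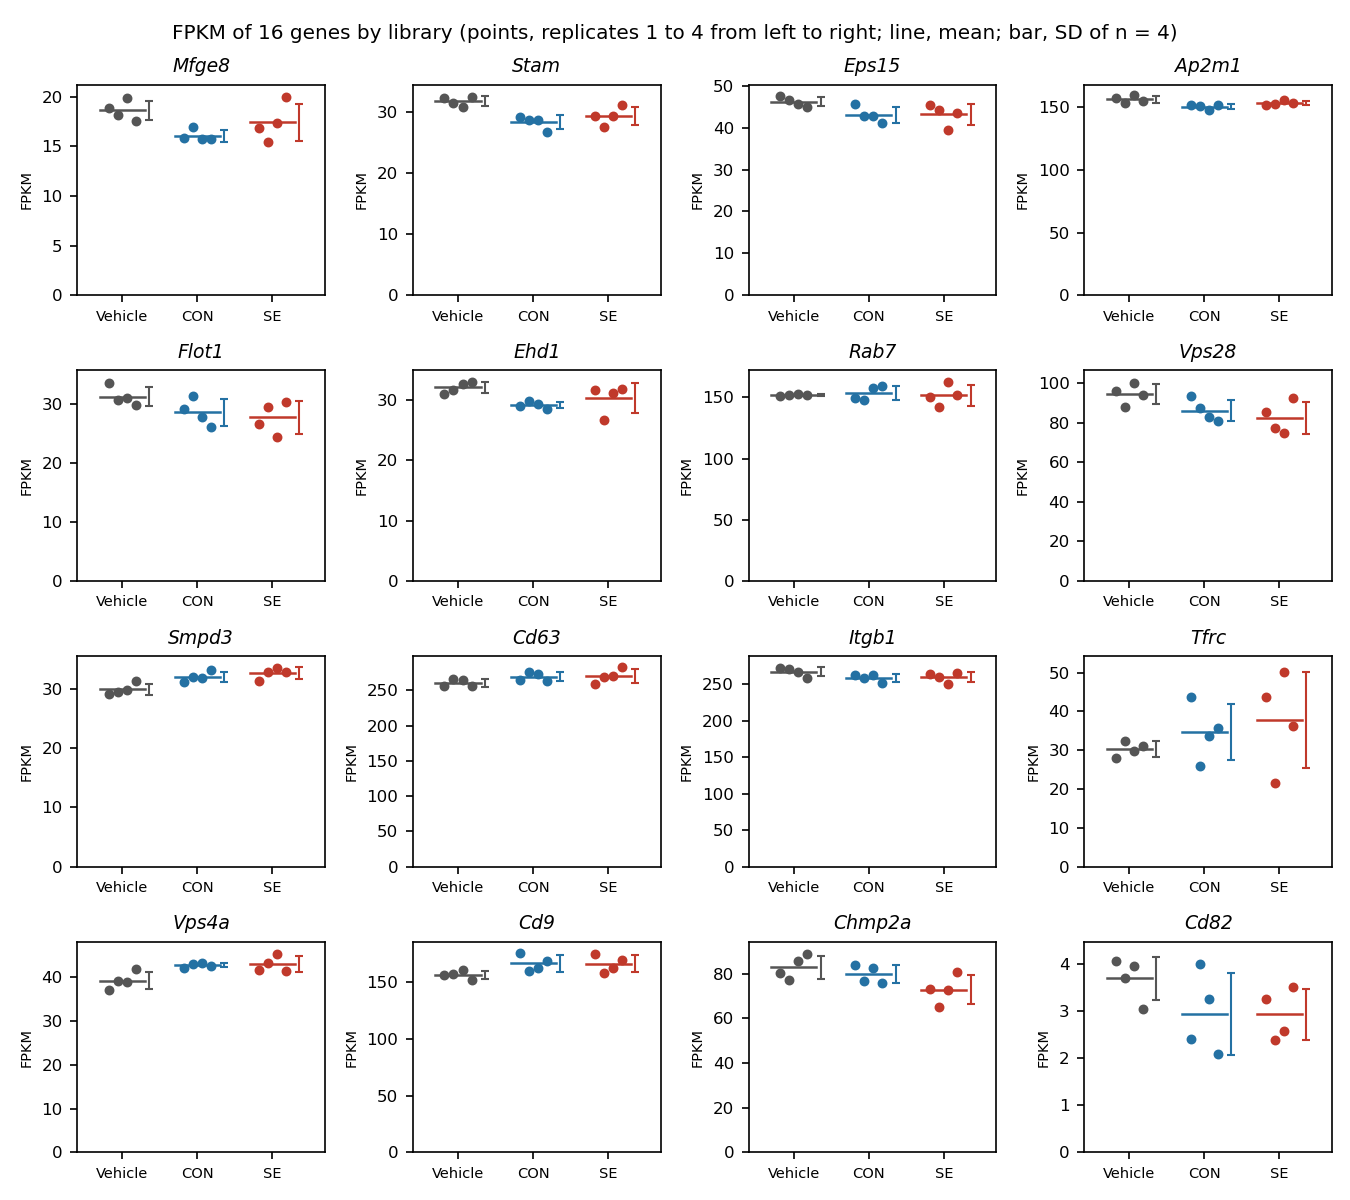
FPKM of 16 genes in each library (points, replicates 1 to 4 from left to right in each group), with the mean as a line and the SD of 4 libraries as a bar. For Mfge8 and Stam the CON libraries lie below all Vehicle libraries, and for Tfrc replicate 2 is the lowest in each BDEV group.

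In the clathrin group 0 of 12 tested genes were called by limma in either comparison, and 0 in SE-BDEV and 2 in CON-BDEV (16.7%; Ap2m1, Eps15) had an unadjusted p under 0.05, as 14.8% and 19.1% of all tested genes had. Their log2 fold changes ran from -0.10 to 0.04 in SE-BDEV (8 below 0, or 66.7% against 45.4% of all tested genes, median -0.03) and from -0.10 to 0.05 in CON-BDEV (10 below 0, or 83.3% against 48%, median -0.06). Eps15 (mm9 chr4:108952880-109060421), a scaffold at the rim of the coated pit, had the lowest p of the group in the joint comparison. It read 47.6, 46.6, 45.7 and 45.0 FPKM in Vehicle replicates 1 to 4, 45.7, 42.7, 42.8 and 41.1 in CON-BDEV replicates 1 to 4, and 45.5, 44.2, 39.6 and 43.5 in SE-BDEV replicates 1 to 4. Replicate 1 of each BDEV group lay within the Vehicle range and the others below it. The fold change was -0.10 ± 0.04 in CON-BDEV and -0.10 ± 0.04 in SE-BDEV, with adjusted p of 0.171 and 0.349.

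Ap2m1 (mm9 chr16:20535553-20544982), the AP-2 subunit that reads tyrosine-based sorting signals, was the most abundant gene of the group. It read 157.5, 153.4, 159.6 and 155.4 FPKM in Vehicle replicates 1 to 4, 151.6, 150.7, 147.8 and 151.9 in CON-BDEV replicates 1 to 4, and 152.1, 152.7, 156.0 and 153.7 in SE-BDEV replicates 1 to 4. The CON-BDEV libraries lay below all libraries of the other groups, by a margin that was small against the level: the group means were 156 ± 2.71, 150.5 ± 1.88 and 154 ± 1.72 FPKM (SD, n = 4) in Vehicle, CON-BDEV and SE-BDEV. The fold change in CON-BDEV was -0.06 ± 0.02 with an adjusted p of 0.237, and in SE-BDEV -0.03 ± 0.03 with an adjusted p of 0.703.

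The rest of the coat lay near Vehicle. The light chains Clta and Cltb were at 0.05 and 0.03 in CON-BDEV and at 0.04 and 0.03 in SE-BDEV, and the heavy chain Cltc at -0.06 and -0.06. The AP-2 large subunits Ap2a1, Ap2a2 and Ap2b1 lay at -0.07, -0.05 and -0.03 in CON-BDEV and at -0.08, 0.00 and -0.01 in SE-BDEV. Picalm, a clathrin assembly protein that sorts vesicle SNAREs, was at -0.08 and -0.05, and the membrane-bending adaptor Epn1 at -0.03 and 0.02. The dynamins Dnm1 and Dnm2 stood at -0.06 and -0.08 in CON-BDEV and at -0.04 and -0.05 in SE-BDEV.

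The flotillins, scaffold proteins of membrane microdomains, were both below Vehicle on average and did not pass in limma, Flot1 having an unadjusted p under 0.05 in each comparison. Flot1 (mm9 chr17:35960302-35969732) read 33.5, 30.6, 31.0 and 29.7 FPKM in Vehicle replicates 1 to 4, 29.1, 31.2, 27.7 and 26.0 in CON-BDEV replicates 1 to 4, and 26.5, 29.5, 24.4 and 30.4 in SE-BDEV replicates 1 to 4. The groups overlapped, with 3 of 4 libraries of each BDEV group under the lowest Vehicle library. Its fold change was -0.13 ± 0.06 in CON-BDEV and -0.17 ± 0.07 in SE-BDEV, with adjusted p of 0.241 and 0.266. Flot2, its partner, was at -0.07 and -0.08.

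Among the endosomal Rabs and recycling genes 0 of 12 tested genes were called by limma (1 in SE-BDEV and 2 in CON-BDEV at an unadjusted p under 0.05, which is 8.33% and 16.7%, against 14.8% and 19.1% of all tested genes), with medians of -0.03 in CON-BDEV and -0.02 in SE-BDEV. Ehd1 (mm9 chr19:6276896-6300096), an ATPase that shapes the tubules of the recycling endosome, came closest. It read 31.0, 31.7, 32.6 and 32.9 FPKM in Vehicle replicates 1 to 4, 28.9, 29.8, 29.3 and 28.5 in CON-BDEV replicates 1 to 4, and 31.6, 26.6, 31.2 and 31.9 in SE-BDEV replicates 1 to 4. The CON-BDEV libraries all lay below Vehicle, while in SE-BDEV replicate 2 was low and the other 3 lay within the Vehicle range. The fold change was -0.13 ± 0.03 with an adjusted p of 0.0529 in CON-BDEV, and -0.08 ± 0.06 with 0.532 in SE-BDEV. Ehd1 passed in CON-BDEV in 2 of 16 alternative settings, without CON-BDEV replicate 2 and with the filter raised to 5 FPKM.

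Rab7 (mm9 chr6:87949100-87995264), the GTPase of late endosomes and the most abundant of the group, read 151, 152, 153 and 152 FPKM in Vehicle replicates 1 to 4, 149.6, 148, 157 and 159 in CON-BDEV replicates 1 to 4, and 150.1, 142, 163 and 152 in SE-BDEV replicates 1 to 4. The BDEV libraries spread to either side of a narrow Vehicle range, and the fold changes were 0.01 ± 0.03 and 0.00 ± 0.04 in CON-BDEV and SE-BDEV. The 3 Rab5 genes, which define early endosomes, lay between -0.08 (Rab5a) and -0.03 (Rab5c) in CON-BDEV and between -0.07 (Rab5a) and -0.02 (Rab5c) in SE-BDEV, and their tether Eea1 was at -0.06 and -0.02. The recycling GTPases Rab11a, Rab35 and Arf6 were at -0.07, -0.04 and -0.01 in CON-BDEV and at -0.09, -0.01 and -0.01 in SE-BDEV. Rab31, a GTPase of the path between Golgi and endosomes, was at 0.11 ± 0.04 in SE-BDEV (adjusted p of 0.234), where all 4 libraries lay above Vehicle, and at 0.02 in CON-BDEV, where the libraries overlapped it. Rab27a, which docks multivesicular endosomes for exosome release, was at 0.06 and 0.12, and Ehd4 at -0.01 and -0.03.

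Of the 16 ESCRT genes, Stam fell in CON-BDEV and 0 were called by limma in SE-BDEV, where 4 had an unadjusted p under 0.05, as 4 had in CON-BDEV. These 4 are 25% of the group, where 14.8% of all tested genes passed in SE-BDEV and 19.1% in CON-BDEV. Stam (mm9 chr2:13995739-14069957) is the ESCRT-0 subunit that, with Hgs, binds ubiquitinated receptors at the early endosome. It read 32.4, 31.6, 30.9 and 32.5 FPKM in Vehicle replicates 1 to 4, 29.3, 28.7, 28.8 and 26.7 in CON-BDEV replicates 1 to 4, and 29.4, 27.6, 29.4 and 31.2 in SE-BDEV replicates 1 to 4. All CON-BDEV libraries lay below Vehicle, and of SE-BDEV only replicate 4 reached into the Vehicle range. In CON-BDEV Stam fell by 0.16 on the log2 scale, with a standard error of 0.04 and an adjusted p of 0.0403. In SE-BDEV the fold change was -0.11 ± 0.04 with an adjusted p of 0.238, and in the joint comparison -0.14 ± 0.04 with 0.0528. The 95% interval of the difference between SE-BDEV and CON-BDEV was -0.04 to 0.14. Its partners in ESCRT-0 lay near Vehicle: Hgs was at 0.01 in CON-BDEV and 0.00 in SE-BDEV, and Stam2 at 0.01 and -0.01.

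Of the ESCRT-I genes, Vps28 (mm9 chr15:76452516-76456514) had the highest mean of the 16 over 12 libraries and read 95.9, 87.9, 100.1 and 94.1 FPKM in Vehicle replicates 1 to 4, 93.4, 87.2, 82.8 and 81.0 in CON-BDEV replicates 1 to 4, and 85.4, 77.4, 74.6 and 92.4 in SE-BDEV replicates 1 to 4. Its range over the 12 libraries overlapped that of Vps25, whose mean was the higher of the pair in SE-BDEV (85.8 against 82.5 FPKM) and in CON-BDEV (86.3 against 86.1). BDEV libraries of Vps28 reached below the Vehicle range and overlapped it, with fold changes of -0.13 ± 0.05 in CON-BDEV and -0.20 ± 0.07 in SE-BDEV (adjusted p of 0.173 and 0.192). In a mouse annotation of a later build (GENCODE M21) an exon of Vps28 overlaps Tonsl on the same strand, so their reads may have been shared, and Tonsl was at 0.12 and 0.13. The same holds for Vps25 and Ramp2, a gene at 24.0 FPKM that was at 0.02 in CON-BDEV and 0.01 in SE-BDEV. Tsg101, which recognises ubiquitin and viral or vesicle budding motifs, was at 0.03 and 0.01, and Vps37a at 0.00 and -0.03. The ESCRT-II subunits Vps25 and Vps36 were at -0.01 and 0.00 in CON-BDEV and at -0.02 and 0.03 in SE-BDEV.

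ESCRT-III subunits form the filament that narrows the neck of the bud, and Vps4 takes the filament apart. Chmp2a (mm9 chr7:13617355-13620126) read 80.0, 77.3, 85.4 and 88.6 FPKM in Vehicle replicates 1 to 4, 83.6, 76.8, 82.7 and 75.8 in CON-BDEV replicates 1 to 4, and 73.1, 65.1, 72.6 and 80.6 in SE-BDEV replicates 1 to 4. In SE-BDEV 3 libraries lay below the Vehicle range, with a fold change of -0.19 ± 0.06 (adjusted p of 0.205), and in CON-BDEV the value was -0.05 ± 0.05 (adjusted p of 0.58). Vps4a (mm9 chr8:109555226-109569656) read 37.1, 39.1, 38.8 and 41.8 FPKM in Vehicle replicates 1 to 4, 42.2, 43.1, 43.3 and 42.5 in CON-BDEV replicates 1 to 4, and 41.7, 43.2, 45.3 and 41.3 in SE-BDEV replicates 1 to 4. Its CON-BDEV libraries lay above all Vehicle libraries, and 2 of the SE-BDEV libraries fell short of Vehicle replicate 4. Vps4a was at 0.12 ± 0.04 in CON-BDEV and 0.13 ± 0.05 in SE-BDEV, with adjusted p of 0.101 and 0.222, and the joint comparison gave 0.0675. Its exons overlap those of Pdf on the opposite strand, a gene at 9.09 FPKM with fold changes of 0.11 and 0.15, and whether the counting used strand is not given. The paralogue Vps4b was at 0.06 and 0.07.

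The remaining ESCRT-III genes Chmp2b, Chmp4b and Chmp6 lay at -0.03, -0.01 and 0.03 in CON-BDEV and at -0.04, -0.01 and -0.04 in SE-BDEV. Pdcd6ip (Alix) and Sdcbp (syntenin), which together route cargo into exosomes beside the main ESCRT path, were at -0.08 and 0.03 in CON-BDEV and at -0.06 and 0.04 in SE-BDEV. The Pdcd6ip libraries of CON-BDEV all lay below Vehicle, with an adjusted p of 0.219. For Picalm, Rab5a and Pdcd6ip, whose promoter windows above hold the E-box palindrome, the fold changes were -0.08 ± 0.04, -0.08 ± 0.04 and -0.08 ± 0.03 in CON-BDEV and -0.05 ± 0.03, -0.07 ± 0.04 and -0.06 ± 0.04 in SE-BDEV, and none passed the threshold. The members with the cyclic AMP response element were at -0.03 (Ap2b1), -0.05 (Chmp2a), 0.03 (Cltb) and -0.08 (Rab5a) in CON-BDEV. In SE-BDEV these genes were at -0.01, -0.19, 0.03 and -0.07. Of all tested members 62.7% lay below 0 in CON-BDEV and 66.7% in SE-BDEV, and a part of either motif was not tested.

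For the genes of vesicle identity and release 0 of 5 were called by limma, with 3 in SE-BDEV (60%) and 2 in CON-BDEV (40%) at an unadjusted p under 0.05, as 14.8% and 19.1% of all tested genes had. Smpd3 (mm9 chr8:108776448-108861888), the neutral sphingomyelinase whose ceramide drives inward budding, read 29.1, 29.5, 29.7 and 31.3 FPKM in Vehicle replicates 1 to 4, 31.0, 31.98, 31.7 and 33.2 in CON-BDEV replicates 1 to 4, and 31.2, 32.8, 33.6 and 32.8 in SE-BDEV replicates 1 to 4. Apart from Vehicle replicate 4, all Vehicle libraries lay below all BDEV libraries. Smpd3 was at 0.09 ± 0.03 in CON-BDEV and 0.12 ± 0.04 in SE-BDEV, with adjusted p of 0.168, 0.177 and, in the joint comparison, 0.0750. Its exons overlap Prmt7 on the opposite strand (40.8 FPKM), which was at -0.15 in either comparison.

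Cd9 (mm9 chr6:125410284-125444773), a tetraspanin of the plasma membrane and of vesicles, read 156, 157, 160.5 and 152 FPKM in Vehicle replicates 1 to 4, 176, 159, 162 and 169 in CON-BDEV replicates 1 to 4, and 175, 158, 163 and 169 in SE-BDEV replicates 1 to 4. In each BDEV group replicate 2 lay within the Vehicle range and the other 3 libraries above it. The fold changes were 0.09 ± 0.03 and 0.09 ± 0.04, with adjusted p of 0.181 and 0.305. Cd63 (mm9 chr10:128345975-128349874), the tetraspanin of late endosomes and the most abundant member, read 257, 267, 264 and 256 FPKM in Vehicle replicates 1 to 4, 265, 276, 274 and 263 in CON-BDEV replicates 1 to 4, and 259, 269, 270.3 and 283 in SE-BDEV replicates 1 to 4. The groups overlapped, and Cd63 was at 0.05 ± 0.03 and 0.05 ± 0.03. Cd81 lay at -0.01 and -0.02. Cd82 (mm9 chr2:93259259-93310031), a tetraspanin known as a suppressor of metastasis, was the lowest tested member and read 4.07, 3.70, 3.95 and 3.03 FPKM in Vehicle replicates 1 to 4, 2.40, 4.00, 3.25 and 2.09 in CON-BDEV replicates 1 to 4, and 3.25, 2.37, 2.57 and 3.51 in SE-BDEV replicates 1 to 4. The groups overlapped widely, and its fold changes of -0.27 ± 0.14 and -0.26 ± 0.11 had adjusted p of 0.319 and 0.294.

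Set directly against each other, SE-BDEV and CON-BDEV differed in 0 of 51 genes, as in 0% of all 11312 tested genes (limma, fit of 12 libraries). At an unadjusted p under 0.05 there was 1 member, Chmp2a, lower in SE-BDEV by 0.13 with a 95% interval of -0.262 to -0.00137 and an adjusted p of 1.00, where 2.62% of all genes passed and 1.37% were lower. The groups did not overlap for 1 member, Ap2m1, which was higher in SE-BDEV by 0.03, where 1.39% of all genes did not overlap and 0.76% were higher. The median difference of the members was 0.00, and the 95% interval lay within ±0.32 for 50 of 51, the exception being Tfrc, whose upper bound was 0.51. Of all tested genes, 10266 of 11312 had an interval within that bound. Smaller differences between the vesicle sources were not resolved with 4 libraries a group.

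SE-BDEV replicate 2 stood low for many members. It was the lowest of its 4 libraries for 26 of 51 tested genes, and the lowest for 35.8% of all tested genes, while SE-BDEV replicate 4 was the highest for 20 members (39.2%, against 24.1% of all genes). Within groups the members were tighter than genes at large: their median SD of log2(FPKM + 1) was 0.0401 in Vehicle, 0.0554 in CON-BDEV and 0.0684 in SE-BDEV, against 0.0565, 0.0739 and 0.0898 for all tested genes. Their median level was also higher, at 37.5 FPKM against 15.5, and the part of level in the spread was not tested. The order of the groups was the same for members and for all genes, with Vehicle the tightest.

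The wider pathway also showed small differences. Of 176 further genes in 7 lists (clathrin uptake, caveolar and bulk uptake, endosomal Rabs and tethers, retromer and sorting nexins, ESCRT, vesicle release and tetraspanins, uptake receptors), 150 were tested in CON-BDEV, where 7 fell and 1 rose (5.33%, against 2.84% of all tested genes), and 149 in SE-BDEV, where 1 fell (0.671%, against 0.919%). In the joint comparison 7 of 150 fell and 1 rose (5.33%, against 3.37%), and 0 differed between SE-BDEV and CON-BDEV by limma (5, or 3.33%, at an unadjusted p under 0.05, against 2.62% of all tested genes). The medians were -0.02 in CON-BDEV and -0.01 in SE-BDEV. Tspan14 (mm9 chr14:41719733-41780096), a tetraspanin that escorts the protease Adam10, read 7.56, 6.96, 7.89 and 7.17 FPKM in Vehicle replicates 1 to 4, 5.88, 5.95, 5.46 and 5.40 in CON-BDEV replicates 1 to 4, and 5.35, 4.89, 5.64 and 6.29 in SE-BDEV replicates 1 to 4. All BDEV libraries lay below all Vehicle libraries. Tspan14 was at -0.33 ± 0.05 in CON-BDEV (adjusted p of 0.00879) and -0.36 ± 0.07 in SE-BDEV (0.0451), the 1 gene called in both. Its call was kept in 15 of 16 alternative settings in CON-BDEV and in 7 of 16 in SE-BDEV.

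Of the other genes called in CON-BDEV, Scarb1, Itga6 and Lrp8 are receptors: the lipoprotein receptor Scarb1 was at -0.18 ± 0.03, the laminin-binding integrin subunit Itga6 at -0.20 ± 0.04 and the reelin and apolipoprotein E receptor Lrp8 at -0.19 ± 0.04. Rab9, which serves the return from late endosome to Golgi, was at -0.16 ± 0.03, the sorting nexin Snx18 at -0.13 ± 0.03 and the ubiquitin-binding adaptor Tollip at -0.14 ± 0.03. Their adjusted p lay between 0.0228 (Scarb1) and 0.0490 (Tollip). The gene that rose was Chmp1a, an ESCRT-III subunit, at 0.19 ± 0.04 (0.0322). Each of these calls was kept in 3 (Tollip) to 7 (Itga6) of 16 alternative settings. In the joint comparison Itgb5 and Sdpr (cavin-2) fell in addition, at -0.15 ± 0.04 and -0.13 ± 0.03, while Lrp8 and Tollip were not called. Of 19 alternative settings, the call was kept in 7 for Itgb5 and in 8 for Sdpr. The other joint calls of this wider list were kept in 7 (Rab9) to 19 (Tspan14).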

How the data were processed

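Messenger RNA of 12 N2a libraries was analysed, 4 each of SE-BDEV, CON-BDEV and Vehicle, grouped by their titles. Per the labels' protocols, RNA was polyA-selected and prepared with a directional kit. The authors aligned reads with TopHat2 and computed FPKM values with Cuffdiff on mm9, per the submitters' processing notes, without versions. Not given in the sources used here are annotation, read filters and the strand setting. The deposited tables also hold, per the file headers, Cuffdiff's log2 fold change, p-value and q-value per gene. Vehicle columns stood in both tables and were averaged: they differed by a common factor of 0.0124% to 0.0335% per library, from which single genes above 1 FPKM departed by up to 0.116%.

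From the FPKM values log2(FPKM + 1) was computed, genes averaging 1 FPKM or more were kept, and limma 3.58.1 (R 4.3.3, empirical Bayes with a variance trend, two-sided, Benjamini-Hochberg over all genes tested, adjusted p of 0.05) compared each BDEV group with Vehicle in 8 libraries, and SE-BDEV with CON-BDEV and both groups with Vehicle in 12. The +1 understates changes of low genes. Intervals are at 95%. Depth was estimated from the lowest values above 0 with transcript lengths of a later annotation, so it is approximate.

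Members and lists were chosen with earlier results of these data known. Named genes are members past the threshold in any comparison and, in each of 6 role groups, the member with the lowest p in the joint comparison and the most abundant one. Vps4a, Cd9, Chmp2a, Cd82 and Tfrc were added after their values were seen, as was the choice of the 5 promoters shown. Other pathway genes are named where they passed. Locus starts had 1 added, since end minus start equalled the RefSeq length for 8562 genes and was 1 short of it for 536. Alternatives were another pseudocount, filter, centring, variance trend, block, joint fit, the authors' test, and leaving out each library. Figures used matplotlib 3.10.9.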

Additional observations from a re-analysis of the deposited data

Results flagged for a closer look

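Of 48 sets of 4 libraries screened (named members by group), 2 held a library far from the other 3, by a gap to its neighbour above Dixon's 95% critical value. Chance flags about 1 set in 20. Mfge8 in CON-BDEV replicate 2 was the highest of its 4 libraries at 16.95 FPKM, with a gap of 0.901 of the range, while the others lay at 15.7, 15.75 and 15.82 FPKM. It still lay below every Vehicle library. Ehd1 in SE-BDEV replicate 2 was the lowest of its 4 at 26.59 FPKM, with a gap of 0.869 of the range, and the others lay between 31.2 and 31.9 FPKM. No member had its SE-BDEV libraries all on one side of Vehicle and its CON-BDEV libraries all on the other, and 0 members differed between SE-BDEV and CON-BDEV by limma's test.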

How the results depend on the processing

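Over 1790 values of single genes under alternatives, 171 lost a call made in the main fit and 22 gained a call. A reversal was recorded only where the sign changed with a call in either setting. There were 0 reversals, and 52 values changed sign while past the threshold in neither setting. The count of members called in CON-BDEV (2 as reported) was 0 without the filter on low values, without the variance trend, with all 12 libraries in 1 fit and by the authors' Cuffdiff test, was 3 with a filter of 5 FPKM (Ehd1 added), and ran from 0 to 3 when 1 library was left out. Its median log2 fold change then ran from -0.0373 to -0.0130, and that in SE-BDEV from -0.0276 to -0.0070. In SE-BDEV the count (0 as reported) was 1, Tfrc, by the authors' Cuffdiff test, and 0 to 1 with 1 library left out. In the joint comparison the count (0 as reported) was 1 with a filter of 5 FPKM, 1 with median centring and 2 with the BDEV groups merged, an alternative chosen after seeing the data; it ran from 0 to 2 with 1 library left out, reaching 1 without SE-BDEV replicate 2 (Stam) or Vehicle replicate 4 (Vps4a) and 2 without SE-BDEV replicate 4 (Mfge8, Stam). In the comparison of SE-BDEV with CON-BDEV it was 0 under all 18 alternatives. Calls over all genes moved far more: 104 in SE-BDEV became 5 to 315 with 1 library left out and 4 to 171 otherwise, 321 in CON-BDEV became 134 to 556 and 57 to 347, and 381 in the joint comparison became 124 to 510 and 158 to 485. The cause of these moves was not tested, beyond the smaller number of libraries when 1 is left out. Replicate numbers were not taken as pairs, since not every correlation was over 0.1 and the labels name nothing shared; whether some libraries with the same number share a source is not known. Deviations of same-numbered libraries correlated at -0.12 to 0.30 between SE-BDEV and CON-BDEV (2 of 4 over 0.1), -0.10 to 0.04 between SE-BDEV and Vehicle and -0.06 to 0.02 between CON-BDEV and Vehicle, with 2, 0 and 0 of 4 libraries correlating best with their own number. With the replicate number as a block, 0 members were called in CON-BDEV and 0 in SE-BDEV. FPKM without library totals gives no counting interval, so low values such as Cd82 rest on the spread of 4 libraries.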

Other observations

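Genes of iron handling were read beside the transferrin receptor Tfrc. The list was written after the values of Tfrc were seen. Ftl1, the ferritin light chain that stores iron, read 1756, 1750.4, 1816 and 1833 FPKM in Vehicle replicates 1 to 4, 1939, 2049, 1918 and 2043 in CON-BDEV, and 1951, 1893, 2101 and 1982 in SE-BDEV. All BDEV libraries lay above all Vehicle libraries, where 5.19% of all tested genes did not overlap in either direction. Ftl1 rose in CON-BDEV by 0.15 on the log2 scale (limma, adjusted p of 0.0228), where 1.02% of all tested genes rose. In SE-BDEV Ftl1 was at 0.15 with an adjusted p of 0.0969. Copies of the ferritin genes elsewhere in the genome make its values uncertain. Slc40a1, the iron exporter ferroportin, was low, at 0.861 to 1.39 FPKM in Vehicle, 1.45 to 2.16 in CON-BDEV and 1.53 to 2.38 in SE-BDEV. It was at 0.40 in CON-BDEV and in SE-BDEV and passed in neither (limma, adjusted p of 0.0832 and 0.151). In the joint comparison Slc40a1 rose by 0.40 (limma, adjusted p of 0.0460), where 3.37% of all tested genes were called in either direction. Fth1, the ferritin heavy chain, was at 0.08 in CON-BDEV and 0.02 in SE-BDEV, and Ireb2, the iron-responsive regulator of Tfrc messenger, at -0.01 in either. Aco1, the other iron-responsive regulator, read 14.5 to 16.5 FPKM in CON-BDEV, below every Vehicle library (17.2 to 18.1), and 14.9 to 17.5 in SE-BDEV. In CON-BDEV 6.23% of all tested genes lay below the Vehicle range. Aco1 was at -0.16 in CON-BDEV and -0.14 in SE-BDEV and passed in neither (limma, adjusted p of 0.0731 and 0.237). Tfr2, the second transferrin receptor, was at -0.13 and -0.16, and Steap3, the endosomal iron reductase, at -0.11 and -0.02, without passing. Slc11a2 was at 0.07 in CON-BDEV and 0.10 in SE-BDEV, Hfe at 0.07 and 0.06, and Fbxl5 at 0.04 and 0.01. The heme oxygenase Hmox1, the last gene of the list, was at 0.11 and 0.08, and none of them passed in any comparison.

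Replicate 2 of each BDEV group was the highest or the lowest of its 4 libraries in several of these genes. Over all tested genes, replicate 2 was the lowest for 35.8% in SE-BDEV and 30.5% in CON-BDEV. It was the highest for 28.9% and 27.4%. Hmox1, the heme oxygenase induced by heme and oxidants, read 61.0 FPKM in SE-BDEV replicate 2 against 45.2, 49.6 and 50.001 in the other 3, and 59.9 in CON-BDEV replicate 2 against 43.4 to 54.8, with 46.5 to 49.9 in Vehicle. Ireb2 was the lowest there, at 32.3 and 31.1 FPKM, as was Tfrc. The labels do not say what libraries with the same number share, and the cause was not tested.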
